A study of Homo sapiens with 4 samples.

Results

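The 10 genes described here encode proteins of the nucleolus that make or assemble ribosomes and are known as targets of the transcription factor MYC: FBL, NCL, NPM1, NOP56, NOP58, RRP9, RRP12, MRTO4, WDR43 and GNL3. They were chosen by name and each matched 1 gene of the deposited tables, so they are 10 of 57820 genes, and all 10 passed the filter of at least 1 CPM (reads of a gene for each 1000000 gene reads of the library) in at least 1 library that left 14847 genes. The samples are HEK293T cells, a transformed human embryonic kidney line, transfected with an expression vector for the splicing factor SF3B1. The vector carried the substitution R625H, K666T or K700E, or the wild-type protein (WT), and every cell also kept its own SF3B1 gene. Plasmid amounts were 1000 ng for R625H, 1000 ng for K666T and 2000 ng for K700E, while the labels state no amount for the WT vector. There was 1 library for each of the 4 vectors, made from poly(A) RNA with a stranded kit, so no difference between vectors has a replicate check. Intervals below cover counting error only, since reads without molecular identifiers are not independent molecules.

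Ribosomes are assembled around ribosomal RNA that RNA polymerase I transcribes in the nucleolus. Small nucleolar ribonucleoproteins of the box C/D kind guide methylation of that RNA, the U3 particle and the small subunit processome start its cleavage, and further factors carry the large and small subunits towards export. MYC with its partner MAX binds the E-box CACGTG in promoters of many of these genes, and loss of assembly factors can free ribosomal proteins that bind MDM2. SF3B1 is the subunit of the U2 particle that holds the intron branch point, and its cancer substitutions are known for the use of acceptors a short distance upstream of the usual one.

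Reads assigned to genes numbered between 82254731 and 86394759 in the mutant libraries and 90939945 in WT, and uniquely mapped junction reads between 66015665 and 71122502 in the mutant libraries and 72034388 in WT. Unmapped pairs made up 16.5, 17.3 and 15.2% in R625H, K666T and K700E and 8.84% in WT. SF3B1 had 517, 521 and 512 CPM in R625H, K666T and K700E and 506 CPM in WT. Markers of the cell line were read: LIN28B had between 152 and 165 CPM and NEFM between 329 and 428 CPM over the 4 libraries, while PAX2 had between 1.75 and 2.65 CPM. Markers of blood, liver and fibroblasts (PTPRC, CD3E, ALB, COL1A2) stayed at or below 0.422 CPM in every library. The interferon-induced gene IFIT1 had 204, 142 and 1192 CPM in R625H, K666T and K700E and 29.7 CPM in WT. RSAD2, an antiviral enzyme, had 16.5, 10.6 and 184 CPM in the same mutants and 1.19 CPM in WT, and OAS1, a sensor of double-stranded RNA, had 4.69, 3.48 and 36.3 CPM and 0.308 CPM in WT. K700E thus had the highest interferon-induced levels and the largest stated plasmid amount, and what part either had in the K700E values below was not tested.

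The E-box was looked for in the RefSeq promoter windows, which run from 250 bases before to 50 bases after a gene's start (GRCh38.p14). Of the 10 genes, 8 had an entry and 5 of these held CACGTG, which reads the same on both strands, against 8.78% of 27305 genes with an entry. The matches are shown with 10 bases on each side because their place was alike: each lay within 15 bases of the annotated start. Capitals mark the E-box.
MRTO4: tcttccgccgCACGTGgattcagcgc
WDR43: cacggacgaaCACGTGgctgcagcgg
RRP9: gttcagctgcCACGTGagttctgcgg
GNL3: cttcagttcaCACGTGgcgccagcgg
FBL: cgctcttttcCACGTGcgaaagcccc
These windows are chr1:19251809-19251834 (plus strand), chr2:28894660-28894685 (plus), chr3:51941894-51941919 (minus), chr3:52686028-52686053 (plus) and chr19:39846358-39846383 (minus). The first base of the E-box lay at position 15 of the MRTO4 transcript, 4 of WDR43, 7 of GNL3 and 7 of FBL, and at position -5 from the start of RRP9. The GNL3 match is in 1 of its 2 entries, and NCL, NPM1 and NOP56 held no match in their windows. A match is a description of letters only. MYC itself had 168, 168 and 171 CPM in R625H, K666T and K700E, against 212 CPM in WT, so its own RNA was lower in each mutant library, by log2 ratios of -0.33, -0.33 and -0.31.

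The comparison of each mutant library with WT asked whether RNA of these genes differed in level. The differences were small and mostly upward. The median log2 ratio of the 10 genes was 0.14 in R625H, 0.11 in K666T and 0.20 in K700E, against -0.02, -0.00 and -0.00 over all 14847 genes. Of the 10 genes, 9 (R625H), 8 (K666T) and 9 (K700E) were above WT. Among the 4739 genes with at least 50 CPM in every library, 50.8, 53.7 and 52.3% were above WT in R625H, K666T and K700E. In all 3 mutant libraries 8 of the 10 were above WT, against 36.6% of the same 4739 genes. The 3 comparisons share the WT library, so they are not separate evidence. At 1.5-fold, 0 of the 10 genes were past the limit in R625H, 0 in K666T and 1 in K700E, where it was FBL. Over all genes, 1.66, 2.1 and 3.8% were at least 1.5-fold higher in R625H, K666T and K700E than in WT, and 0.431, 0.391 and 2.16% were lower. At 1.2-fold, 1, 3 and 3 of the 10 genes were higher in R625H, K666T and K700E and 0 were lower, against 7.15, 9.93 and 14.8% of all genes higher and 7.62, 7.1 and 12.4% lower. In such bulk RNA, a change in the make-up of the cells and a change in RNA per cell cannot be told apart.

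**Figure D1:**
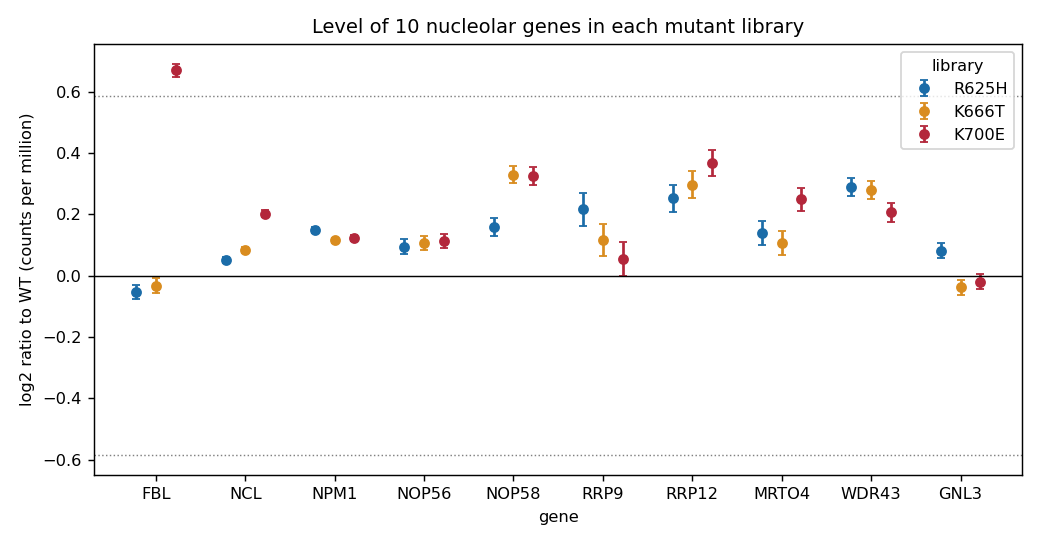
Log2 ratio of CPM of each mutant library over WT for the 10 nucleolar genes (vertical axis), with bars for the 95% counting interval and dotted lines at 1.5-fold. FBL in K700E, at 0.67, is the 1 point past the line, and the other points lie between -0.05 and 0.37.

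FBL, fibrillarin, is the methyltransferase of the box C/D particles. It had 316, 321 and 522 CPM in R625H, K666T and K700E and 328 CPM in WT. R625H and K666T lay just under WT, with log2 ratios of -0.05 and -0.03, and K700E stood apart at 0.67, a 1.59-fold level (95% counting interval of the log2 ratio 0.65 to 0.69). K700E was also 0.72 above R625H and 0.70 above K666T on the log2 scale, and FBL was the only member past 1.5-fold between mutants, where 1.93% of all genes were higher in K700E than in R625H and 1.3% higher than in K666T.

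NOP56 and NOP58 are the paired scaffold proteins of the same particles. NOP56 had 341, 344 and 346 CPM in R625H, K666T and K700E and 319 CPM in WT, log2 ratios of 0.09, 0.11 and 0.11. NOP58 had 221, 249 and 248 CPM in the same mutants and 198 CPM in WT, log2 ratios of 0.16, 0.33 and 0.33. All 3 mutant libraries were above WT in both genes, and NOP58 passed 1.2-fold in K666T and K700E. RRP9, the protein specific to the U3 particle, had 71.9, 67.1 and 64.3 CPM in R625H, K666T and K700E and 61.9 CPM in WT. Its log2 ratios of 0.22, 0.12 and 0.05 put R625H highest, and the counting interval in K700E ran down to 0.00.

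WDR43, a subunit of the small subunit processome that also takes part in transcription by RNA polymerase I, had 233, 231 and 220 CPM in R625H, K666T and K700E and 190 CPM in WT. Its log2 ratios of 0.29, 0.28 and 0.21 lay close together. RRP12, which in yeast acts in export and maturation of both subunits, had 102, 105 and 111 CPM in R625H, K666T and K700E and 85.6 CPM in WT, with log2 ratios of 0.25, 0.30 and 0.37. MRTO4, whose yeast counterpart holds the place of a stalk protein on the early large subunit, had 131, 128 and 142 CPM in the mutants in that order and 119 CPM in WT, log2 ratios of 0.14, 0.11 and 0.25.

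NCL and NPM1, nucleolin and nucleophosmin, are abundant nucleolar phosphoproteins that act as chaperones in assembly, and GNL3, nucleostemin, is a GTP-binding protein of the nucleolus. NCL had 1766, 1807 and 1963 CPM in R625H, K666T and K700E and 1706 CPM in WT, log2 ratios of 0.05, 0.08 and 0.20. NPM1 had 2759, 2694 and 2709 CPM in the mutants and 2488 CPM in WT, log2 ratios of 0.15, 0.11 and 0.12. GNL3 had 325, 299 and 303 CPM in R625H, K666T and K700E and 307 CPM in WT, and its log2 ratios of 0.08, -0.04 and -0.02 lay on both sides of WT. Per kilobase of exon the order of levels was the same in every library: NPM1, NCL, FBL, GNL3, NOP58, NOP56, WDR43, MRTO4, RRP9 and RRP12. It ran from 721, 704 and 708 CPM per kb for NPM1 in R625H, K666T and K700E (650 in WT) to 11.9, 12.3 and 13.0 CPM per kb for RRP12 (10.0 in WT).

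The higher level of FBL in K700E was then followed along the transcript. Reads across each intron were taken from the junction files and divided by the library's junction reads; this and the first and last intron ratios below were added after the gene levels were seen. The first intron of FBL is shown by the bases around its splice, where capitals mark the start of exon 2 (GENCODE release 29, transcript ENST00000221801.7, minus strand of chromosome 19).
FBL exon 1 to exon 2: ccatgaagccagGATTCAGTCCCC
This splice had 2924, 3157 and 17849 reads in R625H, K666T and K700E and 3177 reads in WT, log2 ratios of 0.01, 0.06 and 2.51. K700E was thus far above the other libraries at the 5′ end. At the last of the 8 introns the order turned round, with 2624, 2808 and 1737 reads in R625H, K666T and K700E and 2840 reads in WT, log2 ratios of 0.01, 0.05 and -0.69. Between the ends the K700E ratio was 2.92 at intron 2, 0.42 at intron 3, 0.18 at intron 4 and -0.35 at intron 5. K700E lay below WT from there on, while R625H and K666T stayed between -0.13 and 0.13 at every intron. Intron 2 was read little, with 221, 242 and 1737 reads in R625H, K666T and K700E and 232 reads in WT. At intron 3 WT had 7896 reads. FBL was therefore higher in K700E when counted over the gene or at its 5′ end, and lower when counted at its 3′ end.

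**Figure D2:**
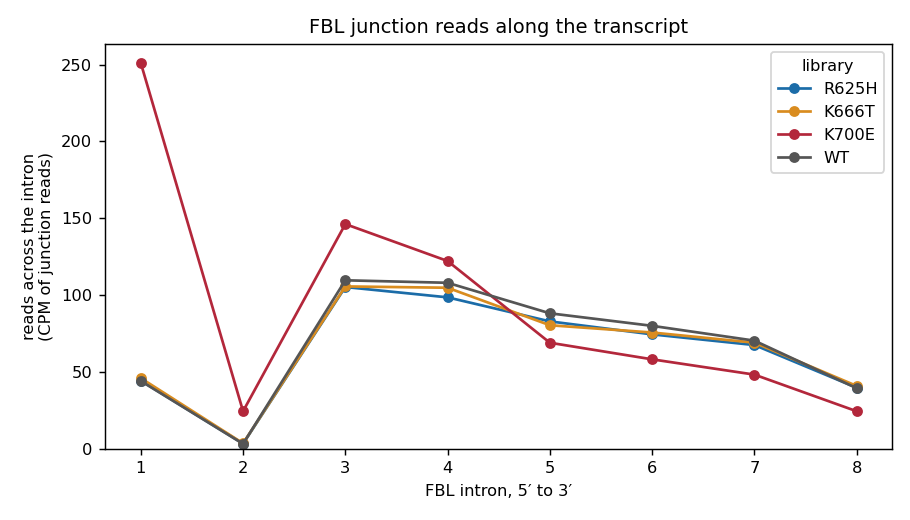
Reads across each of the 8 introns of FBL from the 5′ to the 3′ end, scaled to the library's junction reads (CPM), in the 4 libraries. The K700E line lies far above the others at intron 1 and below them from intron 5 on, while R625H, K666T and WT run together.

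An extra junction of FBL appeared in the same stretch. The hg19 junction chr19:40331156-40331310, which is not in GENCODE release 29 and has a known splice motif, had 0, 0 and 2772 reads in R625H, K666T and K700E and 0 reads in WT. A shorter unannotated junction of 36 bases, chr19:40331362-40331397, had 444, 436 and 2131 reads in the same mutants and 462 reads in WT. The first of these removes intron 2 together with the end of exon 2, and the other lies wholly inside exon 2. Unannotated junctions took 3.03, 4.01 and 10.1% of FBL junction reads in R625H, K666T and K700E and 2.78% in WT.

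The same lean towards the 5′ end was measured in the K700E library over 7296 genes with at least 3 introns and at least 50 reads at the first and last intron in each library. The first intron stood at a median log2 ratio of 0.24 to WT and the last at -0.18, so that the median difference was 0.41 and 77.4% of genes were above 0. In R625H and K666T the median difference was 0.00 and -0.03, with 51.0 and 43.5% of genes above 0. Among the 10 nucleolar genes the median difference was 0.86 in K700E, -0.01 in R625H and 0.00 in K666T. FBL had the largest K700E difference of all 7296 genes, at 3.20, and HNRNPL, a splicing regulator, came next at 2.57. HNRNPL was also high in R625H and K666T, at 1.35 and 1.12, where FBL had -0.01 and 0.01. A difference of at least 1 log2 unit above WT was found for 5 of the 10 genes in K700E and for 13.1% of all genes. R625H and K666T each had 0 such members, with 0.0548 and 0.123% of all genes. The cause of the pattern was not tested. How far it moves each gene's K700E level was not tested either.

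**Figure D3:**
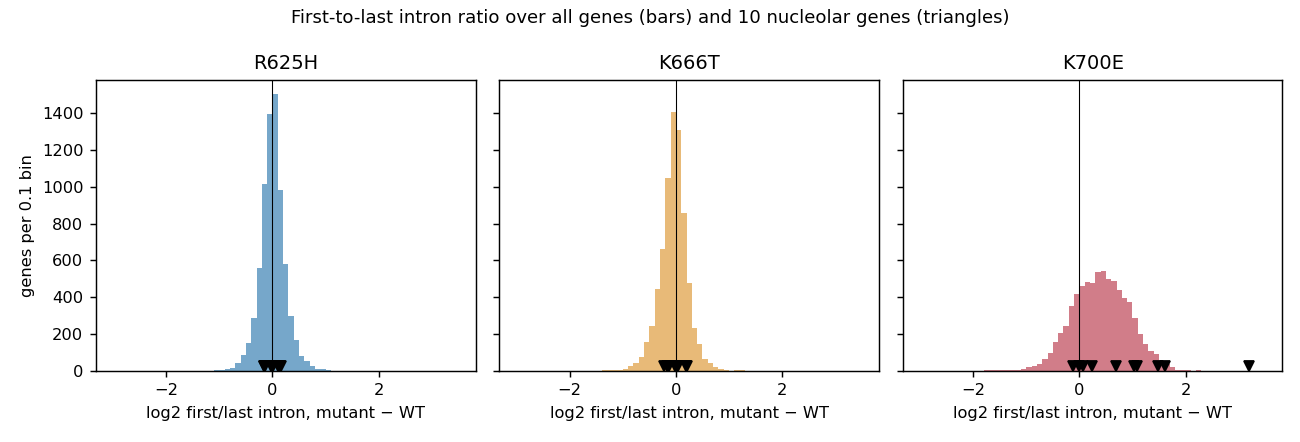
Number of genes (vertical axis, 0.1-wide bins) by the log2 ratio of first to last intron reads in each mutant library minus that in WT, with triangles for the 10 nucleolar genes. The K700E distribution is centred at 0.41 and wider than the other distributions, and FBL, at 3.20, lies at its far right.

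Next to FBL came RRP9, with K700E log2 ratios of 0.94 at the first intron and -0.67 at the last, and GNL3, with 0.84 and -0.64. NPM1 had 0.32 at the first and -0.72 at the last intron, so that its last splice was lower in K700E although its level over the gene was higher. In NOP56 and MRTO4 the first intron stood out, at 1.14 and 0.75, and the last was near WT, at 0.05 and 0.06. The other members differed little between the first and last intron: NOP58 had 0.46 and 0.23, RRP12 0.47 and 0.40, NCL 0.57 and 0.57, and WDR43 0.27 and 0.40. In NCL, however, the ratio lay between -0.24 and 0.15 at introns 2 to 12, under both ends. Its last intron, 13, is the junction chr2:232319979-232320111 taken up below. Counted at the first intron, 5 members were at least 1.5-fold above WT in K700E and 0 below, against 24.2% of the 7296 genes above and 4.61% below. Counted at the last intron, 0 members were above and 4 below (FBL, NPM1, RRP9 and GNL3), against 1.7 and 11.1% of genes. In R625H and K666T, 0 of the 10 genes passed 1.5-fold at either end, where 1.08 and 1.38% of genes were above and 0.863 and 2.67% below WT at the first intron, and 0.946 and 1.38% above and 0.672 and 0.658% below at the last. The base composition around the 2 splices, over 100 bases on each side, had a Pearson r of -0.03 across the 7296 genes with the K700E difference, when taken as GC of the first minus GC of the last; genes are not independent replicates. FBL had 69.0% GC at its first splice and 49.0% at its last, and GNL3, with a difference of 1.48 in K700E, had 44.5 and 41.5%. Along the introns of single genes, GC and the K700E ratio ran together more closely in some members: r was 0.91 over the 8 introns of FBL, 0.80 over 11 in NOP56, 0.68 over 10 in NPM1, 0.61 over 13 in NCL and 0.53 over 14 in RRP9. It was 0.40 over 17 introns in WDR43, 0.03 over 33 in RRP12, -0.12 over 14 in GNL3, -0.29 over 14 in NOP58 and -0.59 over 7 in MRTO4. Neighbouring introns share reads and position, and GC was not separated from position along the gene. No such r was taken along the introns of other genes, and whether GC had a part was not tested.

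**Figure D4:**
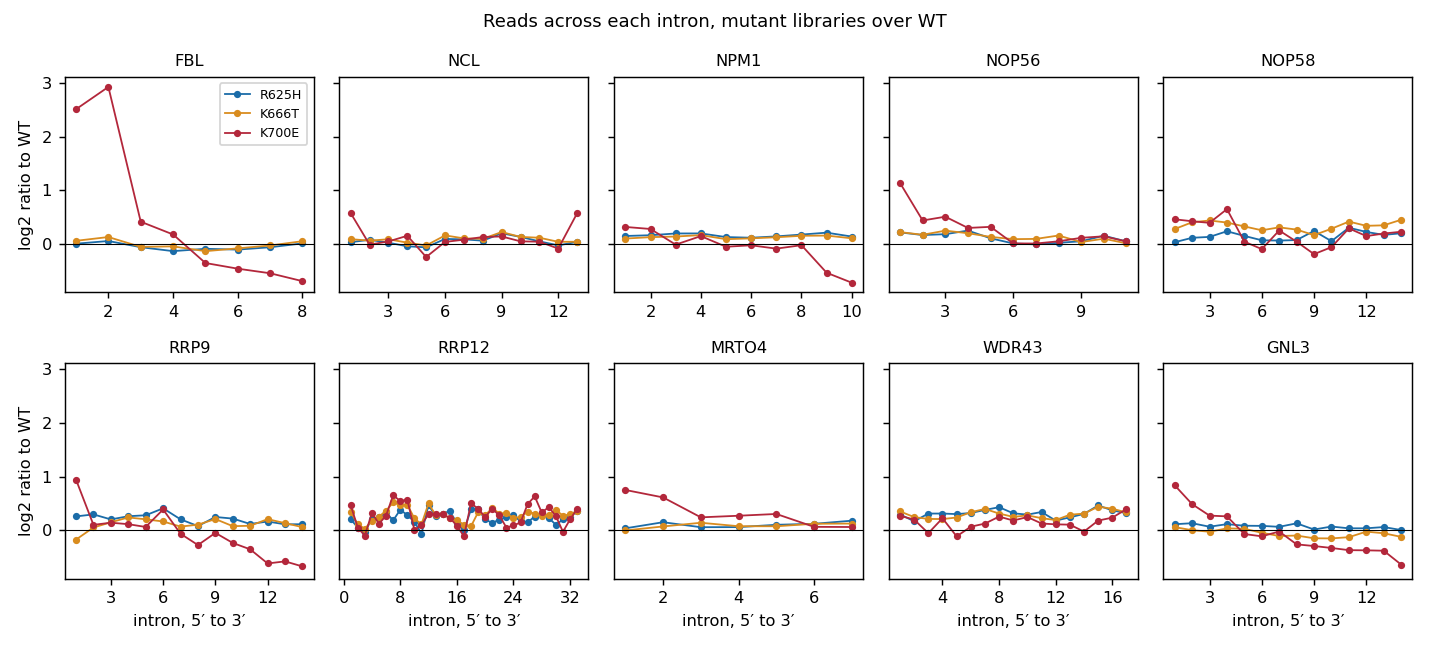
Log2 ratio of reads across each intron in R625H, K666T and K700E over WT, by intron number from the 5′ end, for each of the 10 nucleolar genes. K700E runs downward along FBL, RRP9, GNL3 and NPM1. In FBL it goes as high as 2.92, at the little-read intron 2 (232 reads in WT), and as low as -0.69. R625H and K666T lie between -0.13 and 0.13 in FBL.

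Summed over all junctions of a gene, the log2 ratios to WT were close to those of the gene counts in R625H and K666T, as for NOP58 (0.18 and 0.35), WDR43 (0.32 and 0.30) and RRP12 (0.24 and 0.30). In K700E the junction sums of RRP9 and NPM1 stood at -0.03 and 0.02, NOP56 at 0.24 and MRTO4 at 0.38. FBL was again the only gene past 1.5-fold, at 0.61. These sums count the same libraries a second time. Multi-mapped reads made up between 1.32 and 16.6% of the junction reads of these genes over the 4 libraries, and reads of NCL, NPM1, FBL, NOP56 and NOP58 may be shared with their processed copies, which leaves those levels uncertain.

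Splicing was compared as the share of reads on the upstream of paired acceptors, with a two-sided Fisher's exact test for each pair and Benjamini-Hochberg adjustment over the genome. A call needed an adjusted p under 0.05, a difference of at least 10 percentage points and at least 20 reads in both libraries; such a test compares libraries and not conditions. Among pairs 10 to 30 nt apart in the 10 genes, the upstream share rose at 5 of 69 in R625H, 2 of 67 in K666T and 5 of 68 in K700E, and fell at 1, 0 and 1. Over all genes 3.73, 3.05 and 3.06% rose and 2.07, 2.08 and 2.08% fell. These low counts, read against the background, are not a result about the 10 genes as a set. Where both acceptors were read in all 4 libraries, 0 of 21 pairs of these genes rose in each mutant, against 3.74, 2.67 and 2.37% of all such pairs.

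Among pairs 10 to 30 nt apart in these genes, NOP58 held the only acceptor that was called in all 3 mutant libraries. It lies 21 nt upstream of the usual acceptor of exon 11 of 15, a coding exon, with its last intron base at hg19 chromosome 2, 203162080 against 203162101. The usual splice is shown because the upstream acceptor would place its added bases between the small letters of exon 10 and the capitals of exon 11 (GENCODE release 29, transcript ENST00000264279.9, plus strand).
NOP58 exon 10 to exon 11: cacaaaggaaagATTTCTCGAATG
From the donor of exon 9, with exon 10 skipped, the upstream acceptor took 37 of 89 reads in R625H, 12 of 101 in K666T and 11 of 84 in K700E, and 0 of 50 in WT. These are 41.6% (Wilson 95% interval 31.9 to 52.0), 11.9% (6.93 to 19.6) and 13.1% (7.47 to 21.95), against 0% in WT (0 to 7.14). The share rose in all 3 (Fisher's exact test, adjusted p 3.91e-08, 0.0425 and 0.0341). R625H was highest, and its interval lay above those of the other mutants.

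From the donor of exon 10, the main route, the same acceptor took 147 of 1599 reads in R625H, 64 of 1837 in K666T and 39 of 1487 in K700E, and 1 of 1528 in WT. The shares were 9.19% (7.87 to 10.7), 3.48% (2.74 to 4.42) and 2.62% (1.92 to 3.57), against 0.0655% in WT (0.0116 to 0.370). Each difference had a small adjusted p (3.1e-41, 8.73e-15 and 3.63e-10, Fisher's exact test) but was under 10 points, so none of the 3 was called at that limit; at 5 points R625H alone was. The order of the libraries was R625H, then K666T and K700E, then WT, and the intervals of K666T and K700E overlapped. The acceptor thus took less than 1 read in 10 of the main route, and NOP58 RNA over the gene was not lower than WT in any mutant library. A test between mutants was not made.

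**Figure D5:**
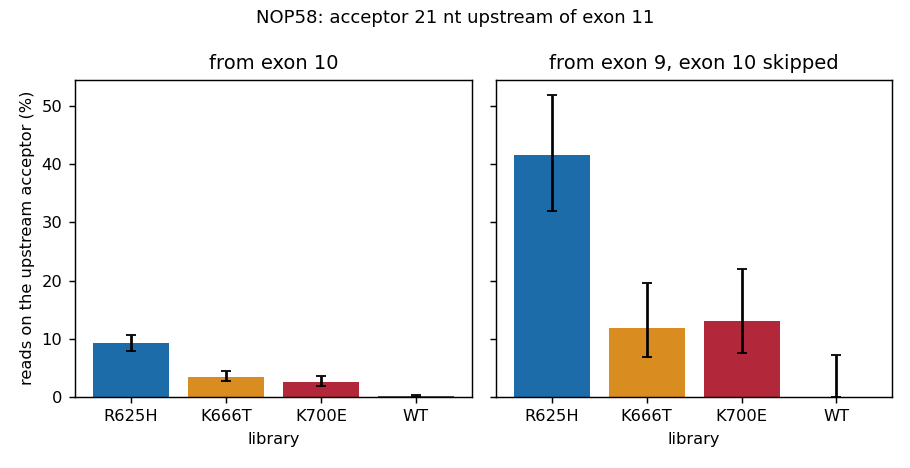
Share of NOP58 reads on the acceptor 21 nt upstream of exon 11, from exon 10 and from exon 9 with exon 10 skipped, in R625H, K666T, K700E and WT, with Wilson 95% intervals. R625H is highest on both routes, at 9.19 and 41.6%, and WT is lowest, at 0.0655 and 0%.

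At the other called pairs, some library lacked any read on 1 of the sites. In NPM1 an acceptor at hg19 chromosome 5, 170817068, 10 nt upstream of another, had 743, 0 and 570 reads in R625H, K666T and K700E and 0 reads in WT. Both are minor sites: the usual acceptor 14 nt further upstream, 170817054, had 32636, 32835 and 39511 reads in the mutants and 32105 reads in WT. In GNL3 an acceptor at chromosome 3, 52727675, had 37, 0 and 0 reads in the mutants in that order and 0 in WT, beside 2485, 2476 and 2015 reads in the mutants and 2642 reads in WT at the usual acceptor, 52727647. In RRP12 the upstream acceptor at chromosome 10, 99129340, took 91.7, 90.1 and 100% in R625H, K666T and K700E and 88.8% in WT, and rose in K700E. The other 5 called pairs were all in NCL, between positions 232319943 and 232320216 of chromosome 2. NCL and NPM1 had 20 and 15 unannotated junctions with at least 200 reads in some library and 0 in another, against 1 in FBL and 0 in each of the other 7 genes. Whether these are splicing events or come from alignment was not tested.

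Every junction of a donor with several acceptors was also tested. In the 10 genes the share rose at 6 of 491 junctions in R625H, 8 of 496 in K666T and 13 of 496 in K700E and fell at 6, 5 and 9, against 0.586, 0.607 and 0.757% of all junctions that rose and 0.651, 0.702 and 0.851% that fell. The NCL junction chr2:232319973-232320168 fell in all 3, with 10.4, 14.3 and 19.7% in R625H, K666T and K700E and 100% of 400 reads in WT, but not every acceptor of this donor was read in all 4 libraries. Of the junctions called in any mutant, 26 were in NCL, and RRP9, MRTO4, WDR43 and GNL3 had 0. When only the 225 junctions that every library read were kept, rises numbered 0, 1 and 1 and falls 0, 0 and 1, with 0.364, 0.359 and 0.584% of all such junctions rising and 0.514, 0.55 and 0.809% falling. A main NCL junction, chr2:232319979-232320111, rose in K700E, with 93.2, 88.5 and 99.8% in R625H, K666T and K700E and 89.7% in WT. This limit took the other reads of a donor together, so a single acceptor could still lack reads in a library. Another acceptor of this donor, 232319952, had 0, 1055 and 0 reads in R625H, K666T and K700E and 965 reads in WT. Whether that site comes from splicing or from alignment was not tested.

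Smaller shifts under 10 points were seen in other genes. In FBL an acceptor inside exon 4 (chromosome 19, 40330945), 23 nt downstream of the usual one, took 0.236, 7.30 and 4.60% of reads in R625H, K666T and K700E and 0.195% in WT (adjusted p 0.98, 7.68e-155 and 3.24e-98, Fisher's exact test). K666T and K700E were high, and R625H was at the WT level. In GNL3 the main junction of the donor at chromosome 3, 52724721, had 94.4, 95.2 and 99.5% in the mutants in that order and 99.8% in WT, so there R625H and K666T differed and K700E stayed near WT. In MRTO4 the junction chr1:19578358-19581275 had 95.2, 99.7 and 98.9% in R625H, K666T and K700E and 99.4% in WT. In RRP9 and WDR43 the largest shifts, among donors with at least 200 reads in every library, were -2.89 points in each mutant and -2.13 points in K700E. Some of these shifts involve sites that a library did not read. Beside acceptor 52724969 alone, the GNL3 junction held 95.6, 95.9 and 100% in the mutants and 100% in WT. Beside 19581302, the MRTO4 junction held 96.5, 100 and 100% in the mutants and 100% in WT. The RRP9 junction had 0 reads in each mutant and 25 of 866 in WT. Whether such sites come from alignment was not tested.

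NPM1 ends in alternative 3′ exons, and the last splice of its main transcript is shown because its reads dropped in K700E (GENCODE release 29, transcript ENST00000296930.9, plus strand of chromosome 5; capitals mark the start of exon 11).
NPM1 exon 10 to exon 11: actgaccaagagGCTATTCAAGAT
This splice had 16337, 16616 and 9707 reads in R625H, K666T and K700E and 16192 reads in WT, so K700E stood apart from the other libraries. The donor of exon 9, whose intron starts at 170832408, joined exon 10 in 85.6, 85.4 and 79.4% of reads in R625H, K666T and K700E and in 84.6% in WT. A nearer alternative 3′ exon, whose intron ends at 170833400, took 13.7, 13.6 and 19.8% in the mutants and 15.0% in WT. K700E had the lowest share of the main route from this donor, by 5.19 points (adjusted p 1.36e-39, Fisher's exact test), which is under the 10 points of a call. A donor 11 nt upstream, at 170832397, joined exon 10 with 0, 0 and 2240 reads in R625H, K666T and K700E and 0 reads in WT, while WT alone had 1723 reads from it to another acceptor. Over every donor within 20 nt, exon 10 received 85.6, 85.4 and 81.7% in the mutants in that order and 78.9% in WT. The direction between K700E and WT thus turns with the donors counted, and no shift between the 3′ exons is read from these shares.

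Cassette exons in the 10 genes were called at 8 of 472 rising and 11 falling in R625H, 6 of 474 and 19 in K666T, and 6 of 466 and 9 in K700E. Over all genes 0.378, 0.375 and 0.445% rose and 0.477, 0.694 and 1.16% fell. Of the exons called in any mutant, 19 were in NPM1, 10 in NCL, 6 in NOP56 and 1 each in FBL, NOP58 and GNL3, and many of these share an end. Inclusion was counted as the mean of the 2 flanking junctions, so reads on 1 side alone can raise it. In GNL3 a stretch of 115 nt (chromosome 3, 52724622 to 52724736) had an inclusion share of 20.6% of 68 reads in R625H and 36.6% of 93 in K666T. It was 53.8% of 106 in K700E and 63.3% of 90 in WT. The share fell in R625H and K666T (adjusted p 1.02e-05 and 0.015, Fisher's exact test). The acceptor of this stretch lies 14 nt downstream of the usual one, 52724607, which had 2236, 2128 and 2105 reads in the mutants and 2304 reads in WT. The share is therefore not read as inclusion of a whole exon. In NOP56 a stretch of 404 nt (chromosome 20, 2637731 to 2638134) had an inclusion share of 45.1, 35.3 and 31.9% in R625H, K666T and K700E. It was 53.6% in WT, and the share fell in K666T and K700E (adjusted p 0.024 and 0.00245, Fisher's exact test). Its acceptor lies 4 nt downstream of the usual one, 2637726, which had 4506, 4510 and 4819 reads in the mutants and 4417 reads in WT. This share too is not read as inclusion of a whole exon. These shares rest on between 68 and 224 reads, against 29465 junction reads or more per library in these genes, so they describe minor routes.

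The wider machinery was also mostly above WT by small amounts. Of 108 other genes in lists of RNA polymerase I, box C/D, box H/ACA, small subunit and large subunit factors, 84, 90 and 90 (77.8, 83.3 and 83.3%) were above WT in R625H, K666T and K700E, against 45.6, 49.6 and 49.99% of all 14847 genes, with medians of 0.09, 0.10 and 0.14 on the log2 scale. At 1.5-fold, 0, 0 and 1 were higher and 0, 0 and 1 lower. The higher gene was UTP3, of the small subunit processome, with 84.4, 93.2 and 119 CPM in the mutants and 70.3 CPM in WT. The lower gene was PPAN, a large subunit factor, with 292, 302 and 193 reads in the mutants and 328 reads in WT and log2 ratios of -0.02, -0.04 and -0.61; it overlaps an annotated read-through gene, which leaves its count uncertain. At 1.2-fold, 5, 7 and 28 of the 108 (4.63, 6.48 and 25.9%) were higher and 1, 0 and 2 lower. Beside the 7.15, 9.93 and 14.8% of all genes that were higher at that limit, the share was below the background in R625H and K666T and above it in K700E. These levels are counts over the whole gene, from which the K700E lean towards the 5′ end described above was not removed. All 6 box H/ACA genes were within 1.5-fold of WT, and their median, 0.03, 0.05 and 0.07, was the lowest of these lists.

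Within the lists, 4 genes each were named by the size of their mean change. TAF1D, a subunit of the polymerase I selectivity factor, had 143, 152 and 148 CPM in R625H, K666T and K700E and 112 CPM in WT, and TAF1B, POLR1D and RRN3 lay between 0.11 and 0.33 on the log2 scale. Of the assembly factors of box C/D particles, ZNHIT6 had log2 ratios of 0.16, 0.21 and 0.47 and PIH1D1 0.27, 0.27 and 0.36, with NUFIP1 and RPAP3 between 0.08 and 0.28. GAR1, of the box H/ACA particle, had 77.6, 78.3 and 103 CPM in the mutants and 69.2 CPM in WT, while its partner NHP2 was at -0.11, -0.11 and -0.02, and NAF1 and NOP10 lay between 0.00 and 0.14. In the small subunit list UTP14A stood at 0.39, 0.39 and 0.53, RIOK2 at 0.34, 0.31 and 0.38, and WDR46 at 0.20, 0.23 and 0.38. In the large subunit list NVL, an ATPase, stood at 0.21, 0.35 and 0.46, NOP2, an RNA methyltransferase, at 0.18, 0.23 and 0.38, SDAD1 at 0.28, 0.25 and 0.19, and PES1 at 0.16, 0.17 and 0.35.

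Of the 12 genes of the MYC network, 4, 6 and 7 were above WT in R625H, K666T and K700E. Of all 14847 genes, 45.65, 49.64 and 49.99% were. MXD1, which competes with MYC for MAX, had 29.1, 32.6 and 34.4 CPM in the mutants and 21.8 CPM in WT. Its log2 ratios were 0.41, 0.58 and 0.65, past 1.5-fold in K700E (3.8% of all genes higher there) and just under that limit in K666T. MXD3, a relative of MXD1, had 14.1, 12.5 and 11.6 CPM in the mutants and 17.7 CPM in WT. It was past 1.5-fold in the lower direction in K700E (2.16% of all genes). The relatives MXD4 (-0.13, -0.21 and -0.28) and MXI1 (-0.08, -0.10 and -0.24) were below WT in each mutant library. Genes known to respond to impaired ribosome assembly stayed within 1.5-fold of WT where they are given here. CDKN1A, a cell cycle inhibitor, had 184, 169 and 171 CPM in R625H, K666T and K700E and 156 CPM in WT. MDM2, a ubiquitin ligase, stood at 0.18, 0.12 and 0.27, and RPL11, a large subunit protein that binds it, at 0.15, 0.05 and 0.13 on the log2 scale.

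The 5 genes outside these lists whose 3 log2 ratios lay nearest to the medians of the 10 nucleolar genes, of 2102 genes with at least 100 CPM in every library, were DNAJB6, BAZ1A, METAP2, GTF2H3 and PSMD4, at Euclidean distances of 0.0232 to 0.0306 log2 units. Small RNA genes lie in introns of GNL3, NCL, NOP56, NOP58 and WDR43, as is known for hosts of small nucleolar RNAs. Of 22 such genes 20 were in the gene tables, and their reads summed to 292, 342 and 425 in R625H, K666T and K700E and 255 in WT. SNORD20, inside NCL, had the highest count, with 51, 58 and 106 reads in the mutants and 35 reads in WT. Poly(A) libraries are not made to hold small nucleolar RNAs, and these counts are too low to compare.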

How the data were processed

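RNA-seq of 4 HEK293T libraries was analysed. The authors deposited raw counts of reads per gene and per splice junction, made with STAR 2.5.3a and HTSeq on hg19 per the submitters' processing notes; no source used here gives the annotation or the role of HTSeq. Strand-specific gene counts were taken, as the kit in the labels is a stranded one. Library sizes exclude 4 rows without a gene; in the deposited files they held unmapped (8.84 to 17.3%), multimapping (4.01 to 4.40%), featureless (5.01 to 5.87%) and ambiguous pairs (3.04 to 3.43%).

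Levels are log2 CPM ratios (prior count 10) with no test, since there was 1 library per vector. The 95% intervals and floors come from read counts alone. GENCODE release 29 introns (GRCh38) were laid on hg19 junctions by equal intron lengths and a constant shift per gene, for 14707 of 18243 protein-coding genes; only hg19 positions of junctions are printed. Junction classes used uniquely mapped reads, at least 5 over the 4 libraries, and Fisher's exact test (two-sided, Benjamini-Hochberg over the genome), whose code was checked on simulated data. Alternatives used edgeR 4.0.16 TMM factors and DESeq2 1.42.0 size factors. Python 3.11.15, numpy 2.4.6, pandas 2.3.3, scipy 1.17.1, numba 0.67.0 and R 4.3.3 were used.

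All 10 genes are named. In each other list, up to 4 genes with the largest absolute mean log2 ratio are named, among those with at least 20 CPM in every library. PPAN and MXD3, which lay under 20 CPM, are named because they passed 1.5-fold in K700E. Called junctions of NCL and NPM1 are given mostly as counts. The members, lists and tests were chosen with earlier results of these data known. NEFL was not analysed here. The list of genes that respond to impaired ribosome assembly is given in part, and the rest is not reported here.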

Additional observations from a re-analysis of the deposited data

How the results depend on the processing

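No paired analysis was possible because each vector has 1 library. The gene log2 ratios of the 10 genes moved by at most 0.06 under TMM, DESeq2 size factors, a library size without genes 2-fold apart, a prior count of 1, no filter and unstranded counts, with 0 changes of sign, and the counts past 1.5-fold stayed at 0, 0 and 1. Other scalings moved the median of all genes by at most 0.02. At 1.2-fold, 1, 3 and 3 of the 10 genes were higher in R625H, K666T and K700E, and at 2-fold 0 were in K700E. Counted at the first intron, 5 were higher in K700E; at the last, 0 were higher and 4 lower, and FBL reversed to -0.69. The NPM1 share of exon 9 reads that reach exon 10 was 5.19 points lower in K700E than in WT from the usual donor and reversed to 2.84 points higher over every donor within 20 nt, a count also added later. By junctions with 20 reads in every library 0 passed in K700E. Both intron counts were added after the data were seen.

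Calls in the 10 genes were 6, 2 and 6 acceptor pairs in R625H, K666T and K700E. Limited to sites read in all 4 libraries they were 0, 0 and 0, with at least 50 reads 1 in K666T, and at 3 to 100 nt 14, 8 and 22. Cassette exon calls of 19 and 25 in R625H and K666T became 6 and 14 with at least 50 reads and 7 and 15 at sites read in all 4 libraries. Donor share calls of 12, 13 and 22 became 0, 1 and 2 at sites read in all 4 libraries, and 8 in K666T with at least 50 reads. Of the 108 other nucleolar genes, 5, 7 and 28 were higher at 1.2-fold and 1, 0 and 2 lower, and at 2-fold 0 were higher and 0 lower in K700E. The cause of these differences was not tested beyond fewer sites being tested under stricter limits.

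With 1 library per vector, depth limits the counting error of a level or share and says nothing of the spread between cultures. Plasmid amount and substitution cannot be told apart for K700E.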
